A study of Mus musculus and Homo sapiens with 4 samples.

Results

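The mitochondrially encoded subunits of complex I were followed in 4 ribosome profiling libraries. They are 7 human and 7 mouse genes, chosen by transcript identifier as the ND genes of the mitochondrial genome, 14 of the 288251 transcripts listed in the series. All 14 were found, and all had at least 1000 reads summed over their pair of libraries. The choice used the genes' names and no measured value, though earlier results of these data were known when it was made. HEK cells, an immortal line from human embryonic kidney, gave the first pair of libraries and were kept in DMEM with 10% FBS. In the bound library assembled 80S ribosomes had been pulled down with streptavidin by an affinity tag that their large subunit carries, and the input library skipped that step; both were separated by size exclusion chromatography. Mouse embryonic stem (ES) cells of the E14 line, with a 129/Ola background, gave the second pair and were grown feeder-free with LIF, the cytokine that keeps them undifferentiated. The emetine library followed 60 s of drug, at a dose the labels do not give, and the cycloheximide library 60 s of drug at 100 µg/ml; in both the ribosomes were pelleted. The sources used here do not give whether the HEK cells are 1 clone or which protein was tagged. With 1 library in each group there is no p-value: comparisons are between libraries, and intervals cover counting error only.

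Complex I, the NADH:ubiquinone oxidoreductase, passes electrons from NADH to ubiquinone at the start of the respiratory chain and moves protons across the inner mitochondrial membrane. Its hydrophobic core subunits ND1 to ND6 and ND4L are encoded in mitochondrial DNA and made inside the organelle by mitochondrial ribosomes, which have their own RNA and proteins and do not contain the large subunit of the cytosolic ribosome. Cycloheximide and emetine are used in ribosome profiling because they arrest cytosolic ribosomes during elongation. How either drug acts on mitochondrial ribosomes was not tested here. Ribosome profiling sequences the short RNA fragments left under ribosomes after nuclease digestion, the footprints, which were counted per coding region.

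Coding regions held 15411358 counts in the bound library, 7631840 in the input, 78702902 with emetine and 163107357 with cycloheximide. Many isoforms repeat each other's reads, so these sums overstate the reads, and the depth is unknown. A ratio is scaled so that the median coding region with at least 100 summed reads has a ratio of 1, and folds are relative to it. Each member is represented by its coding region where one is counted, and otherwise by its whole transcript. In the HEK files MT-ND4L and MT-ND5 have a counted coding region, and in the mouse files every member except mt-Nd4 has one. By the RefSeq table for GRCm38.p6, the assembly of the mm10 build named for these files, mt-Nd4 is also the member whose length, 1378 bases, is not a multiple of 3. The transcripts were not paired with gene names by the tables used here, so markers of HEK or ES cells were not checked.

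After capture, footprints of all 7 human members were far less frequent. Summed over the members, 3011 reads were counted in the bound library and 38142 in the input, which is 25.2-fold lower relative to the median coding region (95% exact counting interval 24.3 to 26.1). The members took 0.0195% of coding reads in the bound library (exact binomial interval 0.0188 to 0.0202) and 0.499% in the input (0.494 to 0.504). In these shares the whole-transcript reads of members without a counted coding region were added to both sums. The members' median log2 ratio was -4.84, against 0.00 over 26492 coding regions. All 7 were 16-fold lower or more. Of all coding regions, 0.861% (228) passed the 2-fold threshold in this direction and 0.0189% (5) passed 16-fold, and MT-ND4L and MT-ND5 are among those 5.

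**Figure D1:**
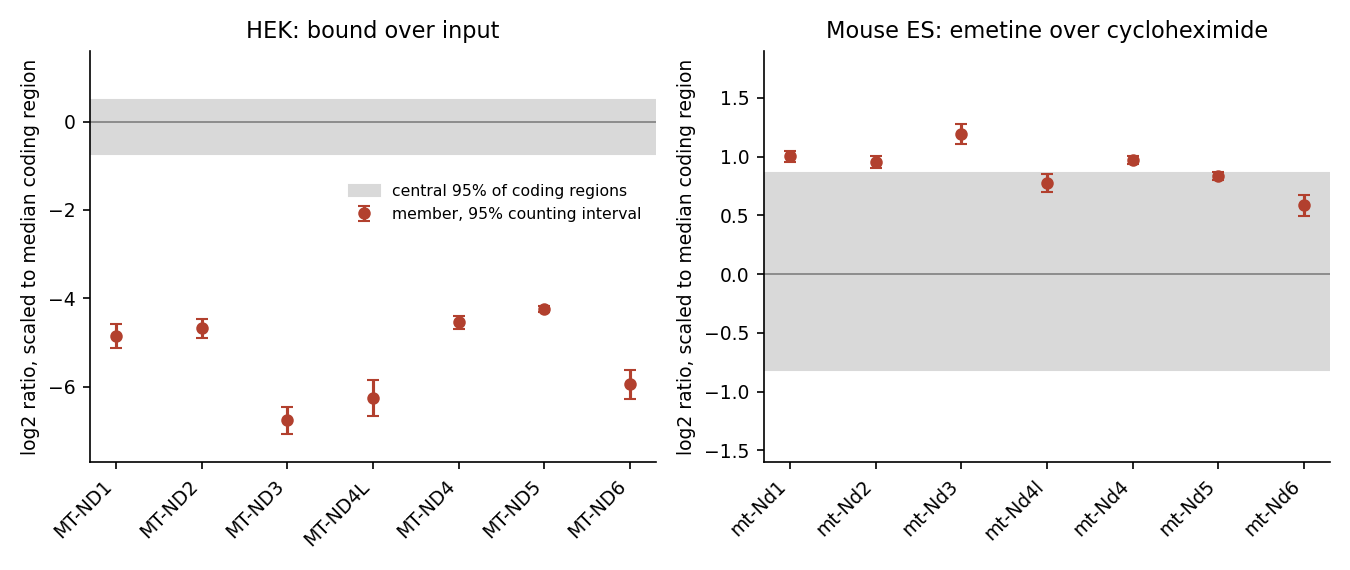
Log2 ratio of each member, scaled to the median coding region, for bound over input in HEK cells (left) and emetine over cycloheximide in mouse ES cells (right). Points are ratios with 95% exact counting intervals, and the grey band spans the central 95% of coding regions (-0.72 to 0.49 in HEK, -0.82 to 0.86 in mouse). All human members lie far below the band, and the mouse members lie in its upper part or above it.

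Among the subunits that line the ubiquinone side of the membrane arm, MT-ND1 (ENST00000361390), which helps to form the ubiquinone channel, had 131 reads in the bound library and 1891 in the input. It was 28.7-fold lower (interval 24.0 to 34.5). MT-ND3 (ENST00000361227), a small subunit with a flexible loop near the ubiquinone site, had 90 reads in the bound library and 4855 in the input. It was 107-fold lower (87.1 to 134), the lowest ratio of the 7. No coding region of the HEK pair with at least 100 reads had a ratio as low, but MT-ND3 is counted here as a whole transcript, and of 22326 other transcripts without a coding region 12 were at or below it, 1 of them with at least 1000 reads.

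MT-ND6 (ENST00000361681) is the one member that is read from the light strand of the mitochondrial genome. It had 82 reads in the bound library and 2537 in the input, 61.5-fold lower (49.4 to 77.6). MT-ND4L (ENST00000361335), the smallest member, shares an mRNA with MT-ND4. Its coding region had 55 reads in the bound library and 2090 in the input, 75.6-fold lower (57.8 to 101). The interval of MT-ND4L overlaps those of MT-ND3 and MT-ND6, so it cannot be ordered against them, while MT-ND3 and MT-ND6 do not overlap.

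The 3 antiporter-like subunits, which move protons, had the smaller differences together with MT-ND1. MT-ND2 (ENST00000361453) had 197 reads in the bound library and 2519 in the input, 25.4-fold lower (22 to 29.5). MT-ND4 (ENST00000361381) had 431 reads in the bound library and 5049 in the input, 23.3-fold lower (21.1 to 25.8). The intervals of MT-ND1, MT-ND2 and MT-ND4 overlap. The coding region of MT-ND5 (ENST00000361567), the distal end of the pump, had 2025 reads in the bound library and 19201 in the input. It was 18.9-fold lower (18.0 to 19.7), the highest ratio of the 7, and its interval overlaps no other.

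The members thus fell into groups by size of the difference that counting error does not bridge. MT-ND3, MT-ND4L and MT-ND6 were at least 49.4-fold lower at the near end of their intervals, and MT-ND1, MT-ND2, MT-ND4 and MT-ND5 at most 34.5-fold lower at the far end. Human gene lengths are not in the tables used here. In the mouse annotation the genes of the first group are 348, 297 and 519 bases long, and the other 4 are 957 bases or longer. Whether length bears on the capture was not tested.

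The make-up of the complex I reads differed accordingly. MT-ND5 supplied 67.3% of the members' reads in the bound library (65.5 to 68.9) and 50.3% in the input (49.8 to 50.8). MT-ND3 supplied 2.99% in the bound library (2.41 to 3.66) and 12.7% in the input (12.4 to 13.1). MT-ND4L made up 1.83% in the bound library (1.38 to 2.37) and 5.48% in the input (5.25 to 5.71). For MT-ND6 the share was 2.72% in the bound library (2.17 to 3.37) and 6.65% in the input (6.40 to 6.91). The shares of MT-ND1, MT-ND2 and MT-ND4 had intervals that overlap between the libraries, at 4.35%, 6.54% and 14.3% in the bound library and 4.96%, 6.60% and 13.2% in the input.

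**Figure D2:**
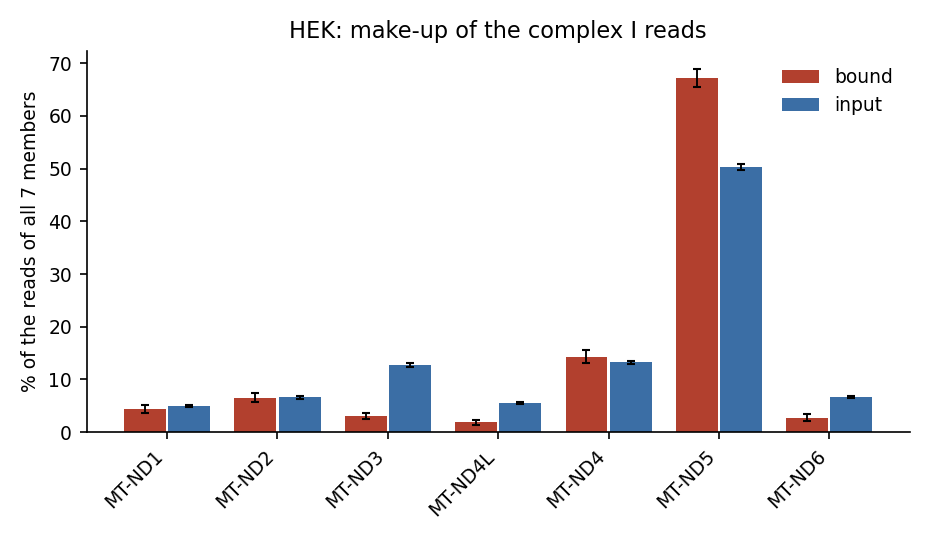
Share of each gene in the reads of all 7 human members (percent), in the bound library and the input. Bars are shares and error bars are 95% exact binomial intervals. MT-ND5 took 67.3% in the bound library and 50.3% in the input, while MT-ND3, MT-ND4L and MT-ND6 took smaller shares in the bound library.

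Few other coding regions reached this range. Of 26490 coding regions outside the members, 3 had a ratio at or below that of MT-ND5, and all 3 had at least 1000 reads. Of these, the pair closest to the members' median were ENST00000361899 and ENST00000361739, which the tables used here do not pair with a gene name. Whether any of the 3 is itself encoded in mitochondrial DNA was therefore not checked. ENST00000361899 had 609 reads in the bound library and 9855 in the input, 32.2-fold lower (29.6 to 35.0). ENST00000361739 had 372 reads in the bound library and 7671 in the input, 41.0-fold lower (36.9 to 45.6). Likeness here means closeness of 1 ratio between 2 libraries. Among transcripts without a coding region, the form in which 5 of the human members are counted, 73 of 22326 lay at or below MT-ND5 (0.327%), and of those with at least 1000 reads 36 of 3105 (1.16%).

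**Figure D3:**
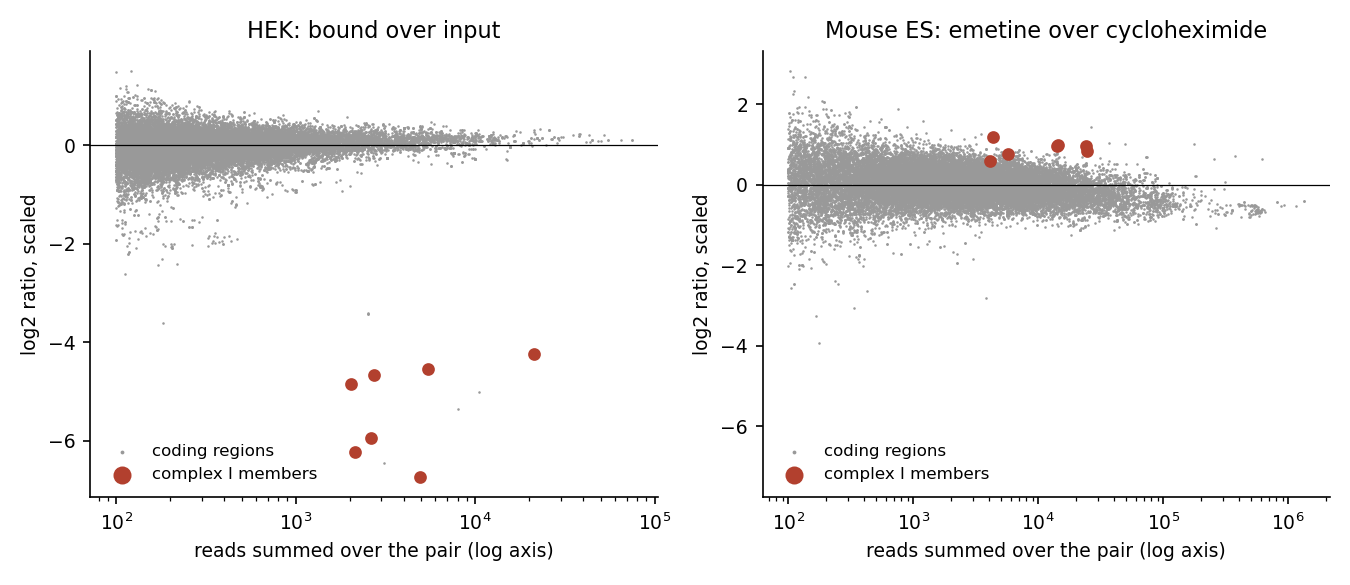
Scaled log2 ratio against the reads summed over a pair (log axis), for bound over input in HEK cells (left) and emetine over cycloheximide in mouse ES cells (right). Grey points are coding regions with at least 100 reads and red points are the 7 members of each species. The human members stand between -6.73 and -4.24, and the mouse members between 0.59 and 1.19 at 4082 to 24509 summed reads.

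In mouse ES cells all 7 members had more reads with emetine than with cycloheximide, relative to the median coding region. The members summed to 47198 reads with emetine and 43898 with cycloheximide, which is 1.89-fold higher after scaling (interval 1.86 to 1.91). They took 0.0600% of coding reads with emetine (0.0594 to 0.0605) and 0.0269% with cycloheximide (0.0267 to 0.0272), with the whole-transcript reads of mt-Nd4 added to both sums. The members' median log2 ratio was 0.95, against 0.00 over 28604 coding regions. At least 1.5-fold higher were 7 of 7 members, against 8.16% of all coding regions; mt-Nd6 lies on that line, and the count was 6 or 7 under the alternatives run. At least 2-fold higher were 2 of 7, against 1.46%. The 2 are mt-Nd1, whose interval spans the 2-fold line, and mt-Nd3; the intervals of mt-Nd2 and mt-Nd4 also reach that line. The count at 2-fold was between 1 and 6 under the other scalings and minimums run. Among coding regions with at least 1000 reads, as all members have, 4.02% passed the 1.5-fold threshold upwards and 0.157% passed 2-fold. Of other transcripts without a coding region, the form of mt-Nd4, 17.1% (4983 of 29067) lay at or above mt-Nd6, the lowest member. With at least 1000 reads it was 10.6% (1697 of 15953), and 15344 of these 15953 lay at or below mt-Nd4.

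Of the subunits at the ubiquinone side, mt-Nd3 (ENSMUST00000082411) had 2463 coding reads with emetine and 1896 with cycloheximide. It was 2.28-fold higher (2.15 to 2.42), the highest of the mouse members, and 6 of 19105 other coding regions with at least 1000 reads had a ratio as high. For mt-Nd1 (ENSMUST00000082392) there were 7670 reads with emetine and 6732 with cycloheximide, 2.0-fold higher (1.94 to 2.07). A ratio as high was found in 26 of those other coding regions.

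The coding region of mt-Nd4l (ENSMUST00000084013) had 2812 reads with emetine and 2889 with cycloheximide, 1.71-fold higher (1.62 to 1.8). A second mouse transcript, ENSMUST00000088336, lists the same counts and has no name in the tables used here; it was left out of the other transcripts counted here. The lowest mouse member was mt-Nd6 (ENSMUST00000082419), with 1880 reads with emetine and 2202 with cycloheximide, 1.5-fold higher (1.41 to 1.6). A ratio as high as that of mt-Nd6 was common, at 760 of the 19105 coding regions.

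Of the proton-pumping subunits, mt-Nd5 had the lowest ratio by its coding region. The values of mt-Nd2 (ENSMUST00000082396) were 7433 reads with emetine and 6743 with cycloheximide, 1.94-fold higher (1.87 to 2.0). Over its whole transcript mt-Nd4 (ENSMUST00000082414) had 12588 reads with emetine and 11279 with cycloheximide, 1.96-fold higher (1.91 to 2.01). In mt-Nd5 (ENSMUST00000082418) there were 12352 coding reads with emetine and 12157 with cycloheximide, 1.79-fold higher (1.74 to 1.83). The intervals of mt-Nd1, mt-Nd2 and mt-Nd4 overlap, while mt-Nd3 lies above them and mt-Nd5 below.

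The order of the members differed between the pairs. MT-ND3 had the lowest ratio in HEK cells and mt-Nd3 the highest in mouse ES cells by coding region. MT-ND5 had the highest in HEK cells, while mt-Nd5 was the third lowest in mouse by coding region. The units differ, since MT-ND3 is counted as a whole transcript. Over whole transcripts mt-Nd2 was highest in mouse at 2.84-fold, followed by mt-Nd3 at 2.43-fold and mt-Nd5 at 2.13-fold. The pairs are different contrasts in different species, and their difference was not tested.

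The mouse members were also set beside each other as reads per codon within a library, counting the whole RefSeq gene as the length. How much of each gene the coding column covers is not stated. A level by coding region may therefore be too low, by an amount that differs between genes. The intervals do not cover this, and the orders below hold only for this way of counting. With emetine the order was mt-Nd4l at 28.4 reads per codon (exact Poisson interval 27.4 to 29.5), mt-Nd4 at 27.4 (26.9 to 27.9), mt-Nd1 at 24.0 (23.5 to 24.6), mt-Nd2 at 21.5 (21.0 to 22), mt-Nd3 at 21.2 (20.4 to 22.1), mt-Nd5 at 20.3 (20.0 to 20.7) and mt-Nd6 at 10.9 (10.4 to 11.4). The neighbours mt-Nd2 and mt-Nd3 do not differ beyond their intervals, nor do mt-Nd3 and mt-Nd5. Those of mt-Nd4l and mt-Nd4 overlap too, but mt-Nd4 alone is counted over its whole transcript. Over whole transcripts with emetine, mt-Nd4l stood at 45.5 and mt-Nd4 at 27.4. With cycloheximide it was mt-Nd4l at 29.2 (28.1 to 30.3), mt-Nd4 at 24.6 (24.1 to 25.0), mt-Nd1 at 21.1 (20.6 to 21.6), mt-Nd5 at 20.0 (19.6 to 20.4), mt-Nd2 at 19.5 (19.0 to 20.0), mt-Nd3 at 16.3 (15.6 to 17.1) and mt-Nd6 at 12.7 (12.2 to 13.3). There mt-Nd5 and mt-Nd2 have overlapping intervals. So, by these mixed counts, 4 members held the same rank in both libraries: mt-Nd4l, mt-Nd4 and mt-Nd1 at the top and mt-Nd6 at the bottom. From the highest to the lowest member the level spanned 2.61-fold with emetine and 2.29-fold with cycloheximide, with mt-Nd4 as a whole transcript. Counted as whole transcripts throughout, the span was 3.08-fold with emetine and 4.41-fold with cycloheximide. Only mt-Nd4l, the highest, and mt-Nd6, the lowest, then kept their rank. With emetine mt-Nd2 at 32.6 and mt-Nd3 at 27.9 then stood above mt-Nd4 at 27.4, and mt-Nd1 at 25.6 stood above mt-Nd6 alone. With cycloheximide mt-Nd4 and mt-Nd1 still followed mt-Nd4l.

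**Figure D4:**
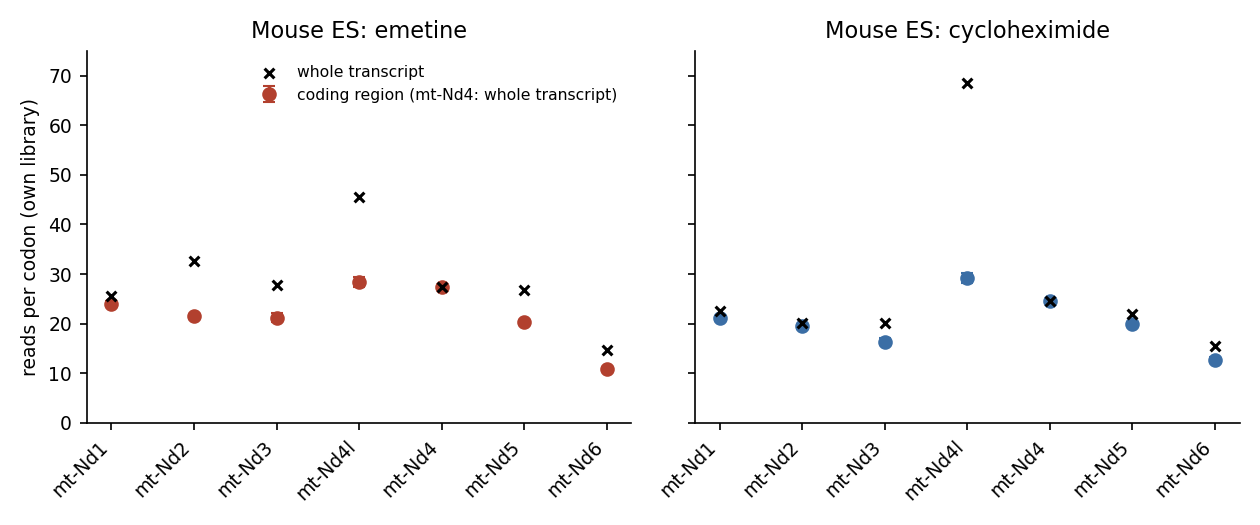
Reads per codon of each mouse member in the emetine library (left) and the cycloheximide library (right), each on its own depth. Coloured points are coding regions with 95% exact Poisson intervals (the whole transcript for mt-Nd4), and crosses are whole transcripts. For mt-Nd4l the whole transcript stands at 45.5 with emetine and 68.5 with cycloheximide, far above its coding region.

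The genes lie close together on the mouse mitochondrial genome, which the RefSeq table lists with 13 protein-coding, 22 tRNA and 2 rRNA genes. In GRCm38.p6, ND1 spans MT:2751-3707, ND2 MT:3914-4951, ND3 MT:9459-9806, ND4L MT:9877-10173, ND4 MT:10167-11544, ND5 MT:11742-13565 and ND6 MT:13552-14070. ND4L and ND4 overlap by 7 bases and ND5 and ND6 by 14 bases, the ends of ND1 and ND2 each overlap a tRNA gene by 2 bases, and no member has more than 1 base between it and a neighbouring gene. The sources used here do not say whether counting used the strand, or how reads that also match nuclear copies of mitochondrial genes were treated. Reads in these overlaps may therefore be shared.

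A part of the mouse reads lay within the transcript but outside its counted coding region. No member has a counted 5' leader or 3' trailer, so these reads belong to no counted part; where the coding column begins and ends is not stated. Their share differed between the drugs, and in opposite directions for different genes. In mt-Nd2 they were 3852 of 11285 reads with emetine, 34.1% (33.3 to 35.0), and 241 of 6984 with cycloheximide, 3.45% (3.04 to 3.91). Against its own coding region the outside reads of mt-Nd2 were 14.5-fold higher with emetine. In mt-Nd4l they were 1689 of 4501 reads with emetine, 37.5% (36.1 to 39.0), and 3893 of 6782 with cycloheximide, 57.4% (56.2 to 58.6), which is 2.24-fold lower with emetine.

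In mt-Nd5 the outside share was 23.9% with emetine (23.3 to 24.6) and 9.20% with cycloheximide (8.72 to 9.70), 3.11-fold higher against its coding region. The shares of mt-Nd3 were 23.8% with emetine (22.3 to 25.3) and 18.8% with cycloheximide (17.3 to 20.5). Those of mt-Nd6 were 26.3% with emetine (24.6 to 28.0) and 18.0% with cycloheximide (16.6 to 19.6). In mt-Nd1 they were 5.96% with emetine (5.45 to 6.49) and 6.53% with cycloheximide (5.97 to 7.12), with overlapping intervals.

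**Figure D5:**
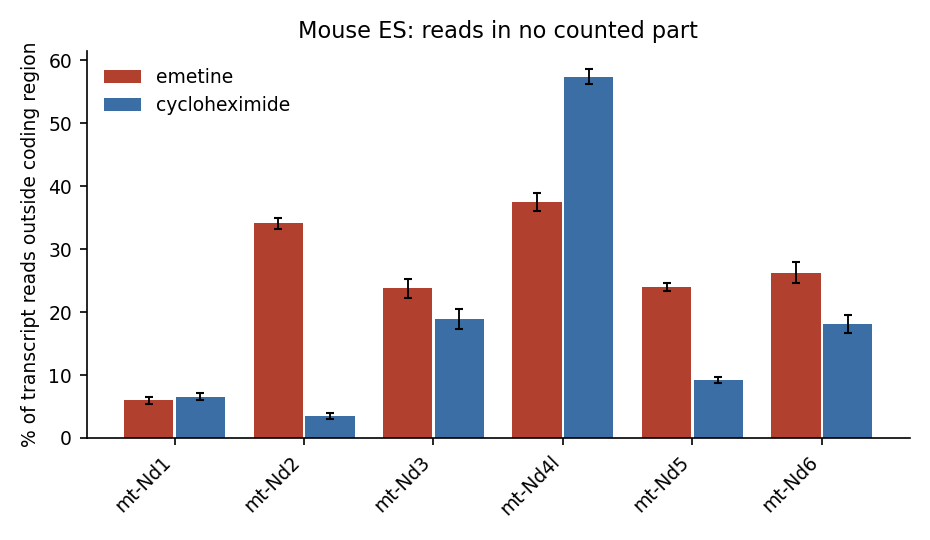
Share of each mouse member's transcript reads that lie outside its counted coding region (percent), with emetine and with cycloheximide; mt-Nd4 has no counted coding region. Bars are shares and error bars are 95% exact binomial intervals. The share of mt-Nd2 is 34.1% with emetine and 3.45% with cycloheximide, and mt-Nd4l runs the other way, at 37.5% with emetine and 57.4% with cycloheximide.

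Outside reads were higher with emetine in many transcripts. Among 301 transcripts with a coding region, no counted leader or trailer and at least 100 reads in each part, 50.8% had outside reads at least 2-fold higher against their coding region, and 2 of 6 members did. Among all 16258 transcripts with a coding region and enough reads, leaders and trailers counted or not, the share was 16.9%. In the other direction 3.99% of the 301 and 3.03% of the 16258 were at least 2-fold lower, and among the members this was mt-Nd4l. Of the 294 other transcripts in the smaller class, 2 had a difference as high as that of mt-Nd2 and 9 one as low as that of mt-Nd4l. The other members were less extreme: mt-Nd5, the next highest, was matched or exceeded by 80 of the 294, and mt-Nd1, the next lowest, had 31 at or below it.

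Counting whole transcripts at the same scaling therefore spread the mouse members further. The ratio of mt-Nd2 became 2.84-fold higher with emetine (2.76 to 2.93) and that of mt-Nd4l 1.17-fold (1.12 to 1.21). With 2.43-fold, 2.13-fold, 1.99-fold and 1.67-fold, mt-Nd3, mt-Nd5, mt-Nd1 and mt-Nd6 lay between them, so that mt-Nd5 then stood above mt-Nd4.

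In HEK cells the outside reads of the 2 members with a counted coding region were few. For MT-ND4L they were 5 of 60 reads in the bound library, 8.33% (2.76 to 18.4), and 184 of 2274 in the input, 8.09% (7.0 to 9.29), with overlapping intervals. For MT-ND5 they were 11 of 2036 reads in the bound library, 0.540% (0.270 to 0.965), and 44 of 19245 in the input, 0.229% (0.166 to 0.307), again with overlapping intervals. Whole transcripts gave nearly the same depletion, 75.4-fold for MT-ND4L and 18.8-fold for MT-ND5.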

How the data were processed

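The authors deposited raw read counts per transcript, coding region, 5' leader and 3' trailer, per the file headers, with 1 file per library. CASAVA 1.8, Bowtie2 2.0.6, TopHat2 2.0.7, mm10 and hg19 are named in the submitters' processing notes, without a role. The labels name no molecular identifiers, so amplified copies of a footprint may have been counted as separate reads.

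Ratios were bound over input and emetine over cycloheximide, scaled to the median coding ratio at 100 or more summed reads (Python 3.11.15, scipy 1.17.1). The log2 ratio carries a prior of 0.5 scaled reads; folds and their exact Clopper-Pearson intervals carry none. The call rule was a 2-fold difference. TMM scaling (edgeR 4.0.16) was an alternative. The procedure was tested on simulated data with 200 changed regions and counting noise only. The planted changes were larger than those of the mouse members, so it does not bear on folds as small as theirs. Members and lists were chosen with earlier results of these data known. All 14 members are named, and, of other transcripts, the pair of human coding regions nearest to the members' median ratio. Of the 14 member identifiers, 0 occur in the name tables; names come from the rule that chose them. Other mitochondrial proteins, nuclear complex I subunits and cell markers were therefore not analysed as such here, and unnamed transcripts may include them. Mouse lengths and coordinates come from RefSeq (GRCm38.p6).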

Additional observations from a re-analysis of the deposited data

How the results depend on the processing

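No paired analysis was possible because a group holds a single library. No member changed direction under the alternatives run. The 7 human members were at least 2-fold lower under each scaling, prior and minimum and also 4-fold lower; scaling to total transcript counts shifts all HEK ratios by 0.20. In mouse the number at least 2-fold higher was 2, and also 2 with priors of 0 and 5; it was 3 with a minimum of 1000 reads, 3 with whole transcripts (mt-Nd2, mt-Nd3 and mt-Nd5, without mt-Nd1), 4 with total transcript counts, 6 with total coding counts (which shift all mouse ratios by 0.24 and put the members' median at 1.19), and 1 with TMM scaling, a minimum of 30 reads, 1 read in each library or identical regions counted once, because mt-Nd1 lies at the line. It was 7 at 1.5-fold and 0 at 4-fold. The 1.5-fold count under the other settings was added after seeing the data: it was 6, without mt-Nd6, with TMM scaling, a prior of 5, a minimum of 30 reads, 1 read in each library or identical regions counted once, 6, without mt-Nd4l, for whole transcripts, and 7 in the rest. As a share of whole-transcript counts the members took 0.0100% in the bound library, 0.220% in the input, 0.0310% with emetine and 0.0148% with cycloheximide. With identical coding regions counted once these were 0.0277% bound, 0.708% input, 0.0694% emetine and 0.0312% cycloheximide. The median reads per codon was 21.5 with emetine and 20.0 with cycloheximide, and 27.4 with emetine and 22 with cycloheximide for whole transcripts, where 2 in place of 4 members kept their rank. Human reads per codon were not run, since no lengths were at hand. The bound counts of 55 to 431 reads in 6 members limit the human ratios.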

Other observations

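When only coding regions of the HEK pair with at least 1000 reads were kept, few ratios lay between the median and the members. Among coding regions with at least 1000 reads outside the members, 3 lay between -6.44 and -5.01 on the log2 scale of bound over input, and the next 3 lay at -3.42, -3.42 and -3.41. The one after these was at -0.94. This gap depends on the minimum. With 100 reads as the minimum, 228 of 26492 coding regions passed the 2-fold threshold downwards, and 32 of these also passed 4-fold. With 1000 reads, 8 of 4592 passed 2-fold, and all 8 passed 4-fold. The gap also leaves out transcripts without a coding region, of which 36 of 3105 with at least 1000 reads lay at or below MT-ND5. The 3 regions near -3.4 had 396 to 398 reads in the bound library and 2132 to 2142 in the input, nearly equal counts. They were singled out after their values were seen, and the tables used here do not pair them with gene names.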
